A study of Mus musculus with 15 samples.

Results

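Interferon-stimulated genes were examined in the livers of C57BL/6 mice, an inbred laboratory strain, on 3-day ketogenic or high-fat feeding or on chow. The set holds 38 genes, listed by name as interferon-induced transcription factors, sensors, antiviral effectors and GTPases, among 25731 annotated genes in the files. All 38 passed the filter on low counts, as did 13967 genes in all. The fewest reads of any member in a library were 11.3, for Oas1g. Mice of the ketogenic (KD) and high-fat (HFD) groups were 12 weeks old when they received their diets. No age was found in the labels for the chow (CD) mice, and no sex, food intake or diet composition for any group. Each diet had 5 libraries of total RNA from whole liver, and no group carried an engineered allele. The treatment field of every sample, chow and high-fat included, names a ketogenic diet, so diets were taken from the sample titles and the diet field. The libraries are named here by the number in their labels: 2, 3, 4, 6 and 8 for ketogenic, 9, 10, 11, 12 and 14 for high-fat, and 15, 16, 17, 18 and 19 for chow. The labels do not state that each number is a separate mouse, so the p-values measure the spread between these libraries. The numbers run in blocks by diet, and any batch that followed those blocks cannot be told apart from diet.

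Interferons are secreted proteins, many of which can be released when cells sense viral or misplaced nucleic acid. Type I and type III interferons signal through the kinases JAK1 and TYK2 to transcription factors that include STAT2 and IRF9. These bind, as a complex, the interferon-stimulated response element, or ISRE, in the promoters of target genes. Interferon gamma acts at a different element, the gamma-activated site or GAS. In liver, hepatocytes, Kupffer cells and endothelial cells can all respond, and many of the target genes are transcribed at a low level without infection.

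Summed estimated counts per library ran from 34707597 to 50914494 (ketogenic), 30121672 to 44764257 (high-fat) and 30190806 to 43688344 (chow). The 8 hepatocyte markers, such as albumin, were summed as normalised counts, scaled to library size as CPM. Their sum was 80964 to 90494 on the ketogenic diet, 66113 to 79533 on the high-fat diet and 72773 to 87141 on chow. Every ketogenic library thus lay above every high-fat library in this sum. Of these markers Alb was lower and Cps1 higher on the high-fat diet than on both others, and Ttr fell on both fat-rich diets against chow. The Mup genes, which encode major urinary proteins, took 3.84 to 6.03% of reads on the ketogenic diet, 7.71 to 14.4% on the high-fat diet and 8.40 to 14.5% on chow. Mitochondrial genes took 9.40 to 10.2%, 10.6 to 12.4% and 11.7 to 12.3%. The part of these shifts in the differences below was not tested. No 2 libraries of a diet agreed within sampling noise. Per-gene tests used the quasi-likelihood F test of edgeR on all 15 libraries, with adjusted p below 0.05 as the threshold, and "rose" and "fell" refer to that threshold. All 3 comparisons draw on the same libraries in pairs, so they are not independent of each other.

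The letters of the interferon response element occurred in most of the members that had a promoter window and in few genes at large. RefSeq promoter windows on build GRCm38.p6, from 250 bases before to 50 after the transcript start, were found for 28 of the 38 genes (32 windows). Windows were not used here for Dhx58, Gbp6, Ifi27, Mx1, Mx2, Oas2, Parp14, Rtp4, Usp18 and Zbp1. The letters GAAANNGAAA, or TTTCNNTTTC on the opposite strand, occurred in 18 of the 28 genes (64.3%), against 3.99% of 27025 genes with a window. The GAS letters TTCNNNGAA, which read the same on both strands, occurred in 6 of 28 genes (21.4%), against 9.55% of all. In Bst2 a GAS match overlapped an ISRE match. Matches of these letters describe the sequence and are not measured binding sites.

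The 250 bases before the transcript start are printed for 7 members, 5 that hold ISRE letters and 2 that do not, because their diet differences are described below. They are written 5′ to 3′ on the strand of the gene, with the ISRE letters in capitals, and overlapping matches run together. The Isg15 sequence lies at chr4:156200819-156201068 (minus strand), that of Ifit1 at chr19:34640639-34640888 (plus strand), and that of Rsad2 at chr12:26456453-26456702 (minus strand). The Gbp3 sequence, from the upstream of 2 starts that RefSeq lists, lies at chr3:142559794-142560043 (plus strand), and that of Bst2 at chr8:71537473-71537722 (minus strand). The sequences without a match are those of Irf7 at chr7:141266425-141266674 (minus strand) and Cmpk2 at chr12:26468965-26469214 (plus strand). 
Isg15: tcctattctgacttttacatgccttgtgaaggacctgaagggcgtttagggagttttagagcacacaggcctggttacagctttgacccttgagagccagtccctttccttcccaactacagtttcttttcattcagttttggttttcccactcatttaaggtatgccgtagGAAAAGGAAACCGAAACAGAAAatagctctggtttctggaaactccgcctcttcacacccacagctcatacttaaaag
Ifit1: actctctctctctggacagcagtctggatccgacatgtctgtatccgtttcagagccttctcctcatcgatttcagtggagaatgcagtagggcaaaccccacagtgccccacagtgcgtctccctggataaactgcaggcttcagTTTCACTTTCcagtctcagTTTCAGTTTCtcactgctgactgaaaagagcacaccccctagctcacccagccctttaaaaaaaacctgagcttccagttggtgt
Rsad2: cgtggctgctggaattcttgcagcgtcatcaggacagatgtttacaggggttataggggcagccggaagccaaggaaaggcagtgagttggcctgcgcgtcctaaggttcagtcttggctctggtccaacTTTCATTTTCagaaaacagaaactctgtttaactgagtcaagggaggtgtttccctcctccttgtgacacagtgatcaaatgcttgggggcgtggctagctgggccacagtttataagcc
Gbp3: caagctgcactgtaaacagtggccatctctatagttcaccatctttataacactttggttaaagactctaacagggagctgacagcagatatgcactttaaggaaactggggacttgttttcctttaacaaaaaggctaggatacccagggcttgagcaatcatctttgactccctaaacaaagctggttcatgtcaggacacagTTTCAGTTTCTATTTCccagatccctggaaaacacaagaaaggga
Bst2: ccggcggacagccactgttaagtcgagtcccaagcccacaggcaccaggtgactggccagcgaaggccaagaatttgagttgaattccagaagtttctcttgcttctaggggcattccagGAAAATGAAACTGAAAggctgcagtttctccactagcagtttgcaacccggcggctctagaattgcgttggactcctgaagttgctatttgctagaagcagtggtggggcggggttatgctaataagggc
Irf7: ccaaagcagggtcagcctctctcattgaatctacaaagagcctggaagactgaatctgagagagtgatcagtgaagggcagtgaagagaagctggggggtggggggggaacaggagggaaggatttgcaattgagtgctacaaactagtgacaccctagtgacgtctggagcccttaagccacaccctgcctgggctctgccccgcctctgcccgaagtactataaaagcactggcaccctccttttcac
Cmpk2: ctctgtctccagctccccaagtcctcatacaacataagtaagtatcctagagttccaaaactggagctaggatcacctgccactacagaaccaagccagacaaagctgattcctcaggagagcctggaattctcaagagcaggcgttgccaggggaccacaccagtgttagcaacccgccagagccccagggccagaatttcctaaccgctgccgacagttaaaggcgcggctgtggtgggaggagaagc

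Isg15 held 3 overlapping matches between bases -78 and -57, counted from the first transcribed base as 1. Ifit1 held a pair of separate matches, at -104 to -95 and at -85 to -76. The single match in Rsad2 lay at -120 to -111, while Cmpk2, its neighbour, had none in its window. Bst2 had 2 overlapping matches at -130 to -115. No match was found for Cmpk2, Ifi35, Ifi44, Ifit2, Irf7, Irf9, Oasl1, Oasl2, Tap1 and Xaf1, which says only that these letters are not in those windows. Of the 26 members higher on the ketogenic than on the high-fat diet, 19 had a window and 13 of these (68.4%) held ISRE letters. Of the 12 that did not pass that comparison, 9 had a window and 5 (55.6%) held the letters. For high-fat against chow the shares lay the other way, with the letters in 5 of 9 members that fell (55.6%) and in 13 of 19 that did not pass (68.4%). For ketogenic against chow they were in 5 of 7 that rose (71.4%), in Bst2, which fell, and in 12 of 20 that did not pass.

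**Figure D1:**
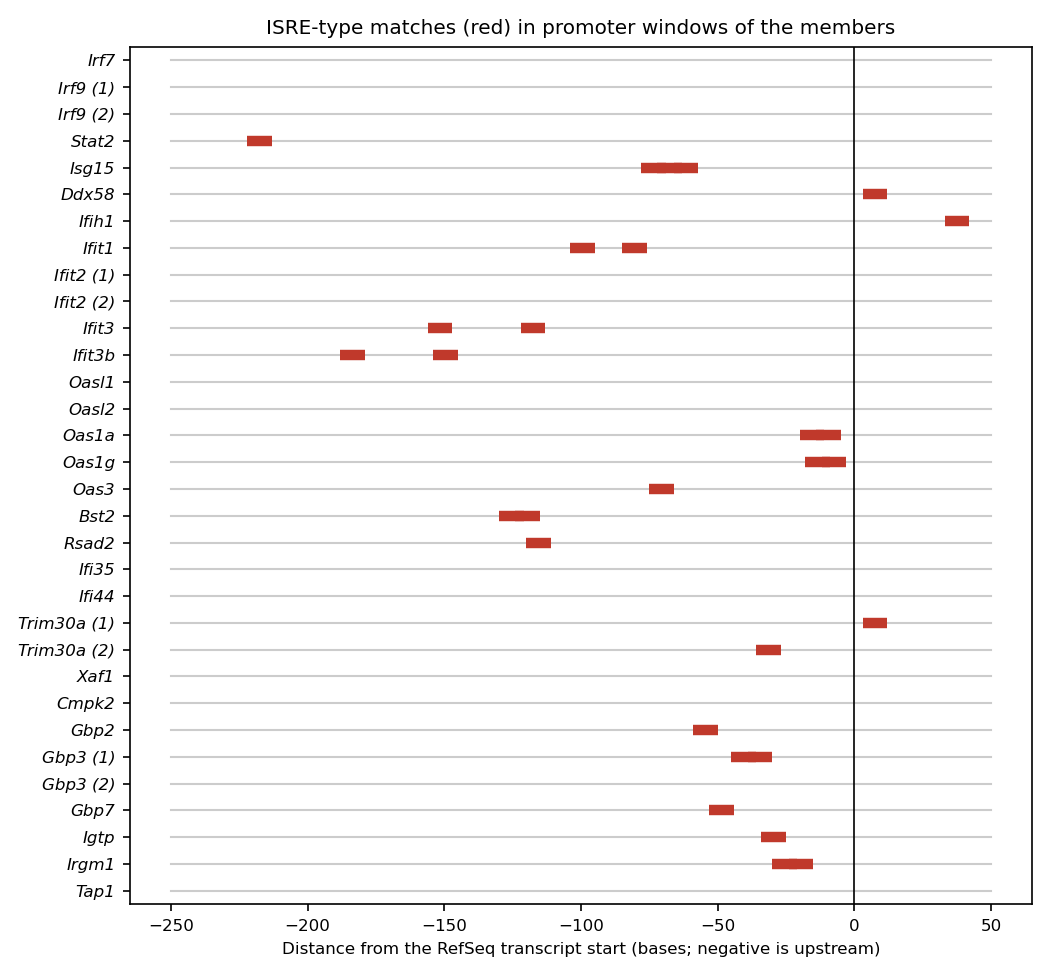
ISRE letter matches (red) along the 32 RefSeq promoter windows of 28 members, by distance in bases from the transcript start (vertical line). Grey lines are the windows. Matches lay within 250 bases upstream or 50 downstream in 18 of the genes, and those of Isg15 are 3 that overlap.

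The clearest difference was between the ketogenic and high-fat diets. In that comparison 26 of the 38 members rose on the ketogenic diet (68.4%, against 13.1% of all 13967 genes) and none fell (against 13.0% of all genes). At an unadjusted p below 0.05, 29 were higher and 0 lower, and the share of all genes at that threshold is not given here. DESeq2 called 28 members higher and 0 lower, and it called 3923 of all 13967 genes, 2072 of them higher. The median difference over the members was 0.54 on the log2 scale, with a range of -0.20 to 1.62, against -0.02 for all genes. In 12 members every ketogenic library lay above every high-fat library (31.6%, against 9.3% of all genes), and in none did every ketogenic library lie below (against 7.73%). The 12 members that did not pass were Bst2, Stat2, Tap1, Oas2, Oas3, Oasl1, Ifi27, Ifi35, Rtp4, Xaf1, Gbp2 and Igtp.

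Between high-fat and chow livers every call was a fall, with 15 members lower on the high-fat diet (39.5%, against 7.32% of all genes) and none higher (against 8.3% of all genes). At an unadjusted p below 0.05, 20 were lower and 0 higher, again without a share of all genes at that threshold. DESeq2 called 17 members lower and 0 higher, and it called 2566 of all 13967 genes, 1258 of them higher. The median was -0.35 (range -0.94 to 0.12), against 0.01 for all genes. In 13 members every high-fat library lay below every chow library (34.2%, against 4.81% of all genes), and in none did every high-fat library lie above (against 5.5%).

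On the ketogenic diet against chow, 9 members rose (23.7%, against 16.2% of all genes) and 1 fell (2.63%, against 14.6%). Those that rose were Usp18, Gbp3, Irf7, Ifi44, Parp14, Irgm1, Gbp7, Gbp2 and Rsad2, and Bst2 fell. The share that rose was of the same order as in all genes, and 28 members did not pass. The median was 0.21 (range -0.67 to 1.03), against -0.01 for all genes. The ketogenic libraries lay wholly above chow in 3 members, Usp18, Irf7 and Ifi44 (7.89%, against 12.2% of all genes), and wholly below in Bst2 (2.63%, against 10.1%).

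The mean level was highest on the ketogenic diet, intermediate on chow and lowest on the high-fat diet in 22 of 38 members, an order seen in 15.2% of all genes. Chow was highest and high-fat lowest in 10 more. The high-fat mean was the lowest of the 3 diets in 32 members, against 28.0% of all genes. Usp18 and Irf7 passed in both directions, each against chow, rising with ketogenic and falling with high-fat feeding. Of the 26 members higher on the ketogenic than on the high-fat diet, 12 had fallen in the high-fat group against chow, 8 had risen in the ketogenic group against chow, and 8 passed neither test against chow. The 8 members that passed in no comparison were Stat2, Tap1, Oas2, Oas3, Oasl1, Rtp4, Xaf1 and Igtp.

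**Figure D2:**
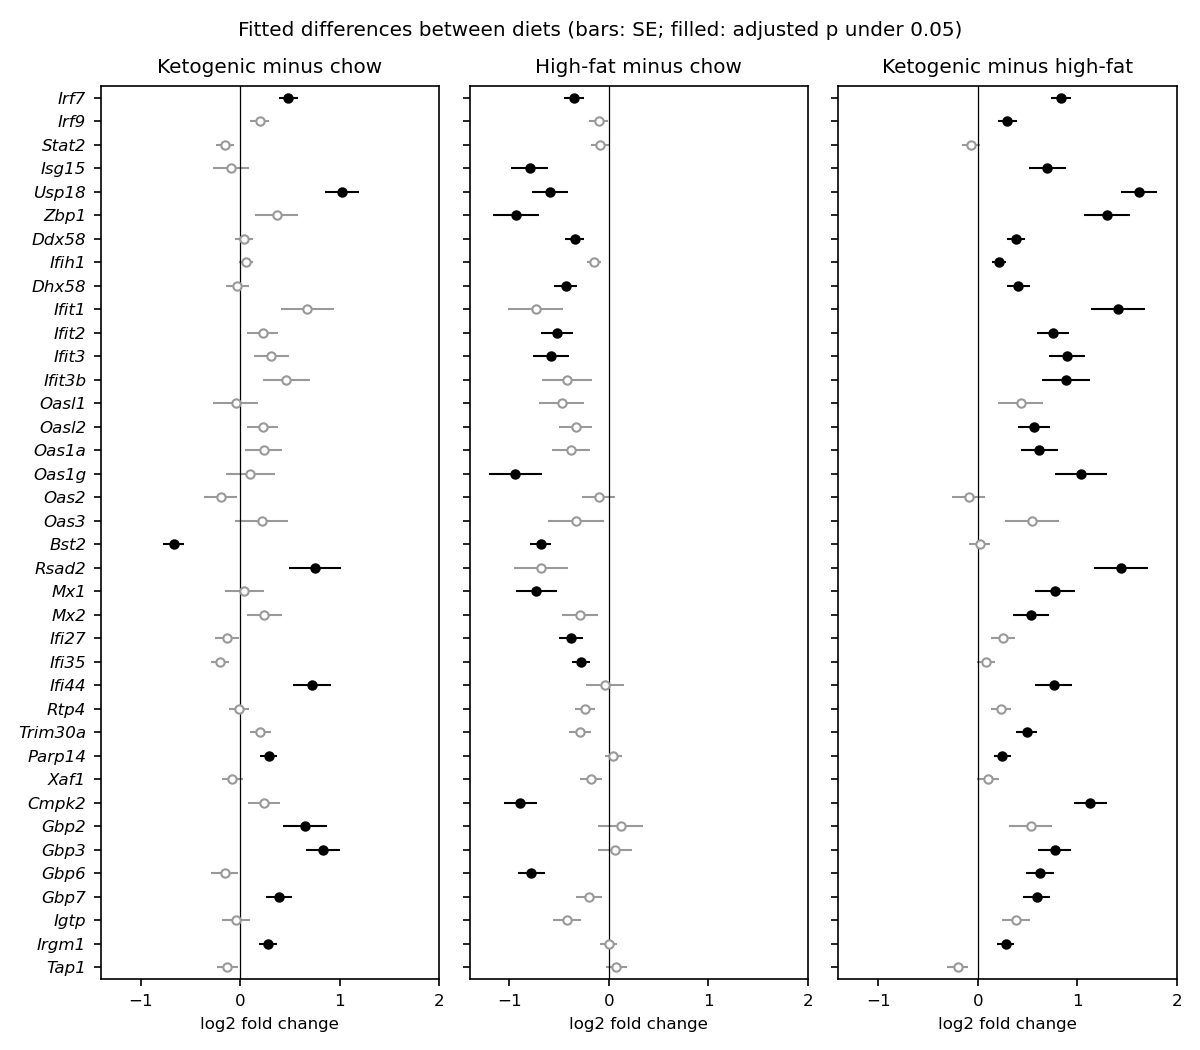
Fitted log2 fold change of each of the 38 members (rows, grouped by role) in the 3 comparisons, with bars for the standard error and filled points for adjusted p below 0.05. Filled points number 9 above and 1 below 0 for ketogenic minus chow, 15 below 0 for high-fat minus chow, and 26 above 0 for ketogenic minus high-fat.

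Among the transcription factors, Irf7 differed between every pair of diets, while Irf9 and Stat2 passed in 1 comparison and in none. Irf7 is the factor that amplifies interferon alpha production. Its normalised CPM were 32.3, 27.4, 25.7, 23.2 and 28.4 in the ketogenic libraries, 22.7, 19.0, 18.5, 17.6 and 20.05 on chow, and 15.5, 15.5, 15.7, 12.0 and 18.0 on the high-fat diet. All 5 ketogenic libraries lay above all 10 others, and high-fat library 14 overlapped the lowest chow library. Irf7 was 1.40-fold higher on the ketogenic diet than on chow (log2 0.49 ± 0.10 SE, adjusted p = 9.86e-04, edgeR) and 1.27-fold lower on the high-fat diet (log2 -0.35 ± 0.10, adjusted p = 0.0251). Between the fat-rich diets it differed by 1.78-fold (adjusted p = 1.09e-05, edgeR). Irf9, the DNA-binding partner of STAT2, ranged from 22.3 to 32.2, from 21.0 to 26.5 and from 21.1 to 24.8 CPM over the ketogenic, chow and high-fat libraries. It passed only between the ketogenic and high-fat diets (log2 0.30 ± 0.09, adjusted p = 0.0280, edgeR). Stat2 had 58.4 ± 7.87, 65.1 ± 6.52 and 61.2 ± 5.55 CPM (SD, n = 5) and passed in no comparison.

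The ISG15 cycle held the member with the largest difference. Usp18 removes the ubiquitin-like protein ISG15 from its targets and also dampens signalling at the type I interferon receptor. Usp18 measured 8.57, 9.39, 7.72, 7.89 and 10.8 CPM in the ketogenic libraries, 4.87, 2.70, 4.19, 6.07 and 4.06 on chow, and 3.55, 2.61, 3.07, 2.02 and 3.15 on the high-fat diet. The lowest ketogenic library stood above the highest chow library, and chow and high-fat libraries overlapped. Usp18 was 2.04-fold higher on the ketogenic diet than on chow (log2 1.03 ± 0.17, adjusted p = 2.52e-04, edgeR). It was 3.07-fold higher on the ketogenic than on the high-fat diet (log2 1.62 ± 0.18, adjusted p = 7.43e-06, edgeR). On the high-fat diet it was 1.51-fold lower than on chow (adjusted p = 0.0385, edgeR). Isg15 itself measured 4.11, 4.44, 2.54, 2.60 and 2.81 CPM on the ketogenic diet, 4.28, 2.77, 2.86, 4.07 and 3.68 on chow, and 2.36, 1.92, 2.31, 1.44 and 2.06 on the high-fat diet. The high-fat libraries lay below all 10 others. Isg15 fell 1.74-fold on the high-fat diet against chow (adjusted p = 0.00831, edgeR), and its ketogenic and chow levels differed by log2 -0.10 ± 0.18 (adjusted p = 0.733).

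All 4 nucleic acid sensors rose on the ketogenic against the high-fat diet, each with no overlap of libraries, and 3 of them fell on the high-fat diet against chow. Among all genes, 13.1% rose and 9.3% had no such overlap in the first comparison, and 7.32% fell in the second. Zbp1 recognises Z-form nucleic acid and can start necroptosis. Its values were 8.12, 5.13, 4.91, 3.52 and 3.93 CPM on the ketogenic diet, 4.96, 3.02, 2.66, 4.04 and 5.25 on chow, and 2.22, 1.80, 1.96, 1.92 and 2.48 on the high-fat diet. The high-fat libraries were low and close together, whereas ketogenic library 2 stood well above the rest of its diet. Zbp1 was 1.91-fold lower on the high-fat diet than on chow (log2 -0.93 ± 0.23, adjusted p = 0.0130) and 2.46-fold higher on the ketogenic than on the high-fat diet (adjusted p = 6.55e-04, both edgeR). The RNA helicases Ddx58 (RIG-I) and Dhx58 (LGP2) fell 1.27-fold and 1.35-fold on the high-fat diet against chow (adjusted p = 0.0183 and 0.0167, edgeR). Ifih1 (MDA5), the third helicase, had 30.4 ± 2.26, 29.1 ± 3.30 and 26.3 ± 0.553 CPM on ketogenic, chow and high-fat diets (SD, n = 5). None of the sensors passed on the ketogenic diet against chow (against 30.8% of all genes), where Zbp1 was at log2 0.37 ± 0.22 (adjusted p = 0.223, edgeR).

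The 4 IFIT genes belong to a family with members that bind foreign RNA ends and block its translation. These 4 genes lie within 99.3 kb of chromosome 19 and all rose on the ketogenic against the high-fat diet (against 13.1% of all genes). Ifit1 measured 11.4, 16.5, 5.51, 7.57 and 14.3 CPM on the ketogenic diet, 7.11, 6.09, 5.92, 8.45 and 7.02 on chow, and 5.86, 3.99, 3.69, 2.79 and 4.39 on the high-fat diet. The ketogenic libraries were widely spread, with 3 and 8 high and 4 below every chow library. Ifit1 was 2.66-fold higher on the ketogenic than on the high-fat diet (log2 1.41 ± 0.27, adjusted p = 0.00206, edgeR) and passed in neither test against chow. Ifit3 measured 12.8, 17.3, 8.24, 9.69 and 15.1 CPM on the ketogenic diet, 10.3, 9.46, 9.36, 12.3 and 9.38 on chow, and 8.13, 6.43, 6.44, 5.22 and 7.66 on the high-fat diet. Its high-fat libraries lay below all others, and it fell against chow (log2 -0.58 ± 0.18, adjusted p = 0.0392, edgeR). Ifit2 measured 4.34, 5.33, 3.76, 3.52 and 3.88 CPM on the ketogenic diet, 2.86, 3.97, 3.06, 4.09 and 3.75 on chow, and 2.59, 2.49, 1.89, 2.02 and 3.39 on the high-fat diet. The ketogenic libraries of Ifit2 stood above every high-fat library, a 1.69-fold difference (adjusted p = 0.00217, edgeR), and it fell 1.44-fold on the high-fat diet against chow (adjusted p = 0.0357). Ifit3b had 3.80 ± 1.34, 2.74 ± 0.817 and 2.05 ± 0.298 CPM on ketogenic, chow and high-fat diets (SD, n = 5). Ifit3 shared 61.8% of its 31-base words with Ifit3b, so reads could be split between them and neither is certain on its own.

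Of the 6 OAS genes, which make oligoadenylates that activate RNase L or resemble such enzymes, 3 rose on the ketogenic against the high-fat diet (against 13.1% of all genes) and 1 fell on the high-fat diet against chow (16.7%, against 7.32%). Oas1g had 0.960 ± 0.332, 0.887 ± 0.0707 and 0.463 ± 0.155 CPM on ketogenic, chow and high-fat diets (SD, n = 5). It fell 1.92-fold on the high-fat diet against chow (log2 -0.94 ± 0.27, adjusted p = 0.0229, edgeR). That call was lost with an offset for effective length and by limma on TPM. The transcript that took most Oas1g reads had 0 to 97.2% of them across the high-fat libraries. Oas1a shared 68.8% of its 31-base words with other genes, nearly all with Oas1g. Oas1g shared 55.1% of its words, nearly all with Oas1a. Reads could be split between them, so neither is certain on its own. Oas1a and Oasl2 rose 1.54-fold and 1.48-fold on the ketogenic against the high-fat diet (adjusted p = 0.0219 and 0.0140, edgeR). Oasl1, Oas2 and Oas3 passed in no comparison, and Oas2 differed by log2 -0.09 ± 0.17 between the fat-rich diets. No OAS gene passed on the ketogenic diet against chow (against 30.8% of all genes).

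Rsad2 and Cmpk2, neighbours on chromosome 12 that are 12.8 kb apart and point away from each other, both rose on the ketogenic against the high-fat diet. Rsad2 encodes viperin, which makes a chain-terminating nucleotide, and Cmpk2 is a mitochondrial nucleotide kinase. Rsad2 measured 14.3, 23.7, 8.32, 10.7 and 21.1 CPM on the ketogenic diet, 8.88, 7.73, 8.00, 13.2 and 8.52 on chow, and 6.54, 6.19, 5.43, 4.26 and 6.38 on the high-fat diet. The high-fat libraries lay below all others, and ketogenic libraries 3 and 8 were far above the rest. Rsad2 was 2.71-fold higher on the ketogenic than on the high-fat diet (log2 1.44 ± 0.27, adjusted p = 0.00182) and 1.69-fold higher on the ketogenic diet than on chow (adjusted p = 0.0427, both edgeR). Rsad2 on the high-fat diet against chow was at log2 -0.68 ± 0.27 and did not pass (adjusted p = 0.109, edgeR). Cmpk2 measured 8.45, 8.32, 4.99, 6.04 and 8.37 CPM on the ketogenic diet, 5.55, 4.91, 5.78, 7.54 and 6.89 on chow, and 4.24, 2.88, 2.89, 2.85 and 3.63 on the high-fat diet. Cmpk2 fell 1.86-fold on the high-fat diet against chow (log2 -0.89 ± 0.17, adjusted p = 0.00195, edgeR), with no overlap, and its ketogenic libraries overlapped chow (log2 0.24 ± 0.16, adjusted p = 0.268).

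**Figure D3:**
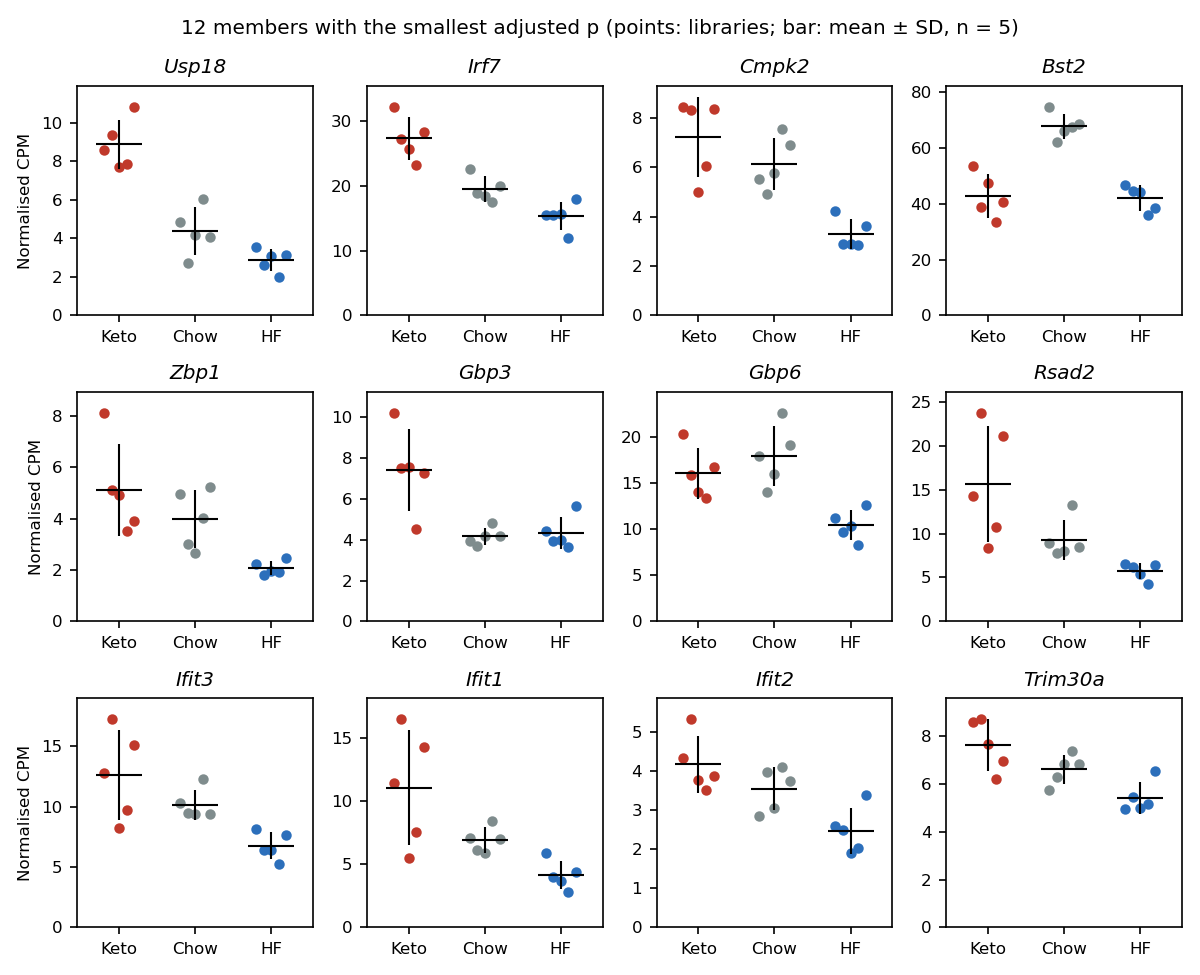
Normalised CPM of the 12 members with the smallest adjusted p in any comparison, with 1 point per library, a horizontal bar for the mean and a vertical bar for the SD (n = 5), each axis from 0. Usp18 and Irf7 are highest in all 5 ketogenic libraries, Cmpk2 and Rsad2 lowest in all 5 high-fat libraries, and Bst2 is highest in all 5 chow libraries.

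Bst2 was the only member to fall on both fat-rich diets against chow, though 12 members had both of these means below that of chow. Bst2, or tetherin, holds budding virus at the cell surface, and it is also a surface marker of plasmacytoid dendritic cells and of antibody-secreting cells. Its values were 53.6, 38.9, 47.4, 33.3 and 40.5 CPM on the ketogenic diet, 74.8, 62.3, 66.1, 67.4 and 68.5 on chow, and 46.9, 44.6, 44.2, 36.1 and 38.6 on the high-fat diet. All 5 chow libraries lay above the 10 others. Bst2 fell 1.59-fold on the ketogenic diet (log2 -0.67 ± 0.11, adjusted p = 1.19e-04) and 1.61-fold on the high-fat diet (log2 -0.69 ± 0.11, adjusted p = 4.10e-04, both edgeR), and the fat-rich diets differed by log2 0.02 ± 0.11. It was also the most abundant member by length, at 86.6 TPM on average. Of 6 B and plasma cell markers 5 fell on the ketogenic diet against chow (83.3%, against 14.6% of all genes). Only Ighm fell on the high-fat diet against chow (16.7%, against 7.32% of all genes), and of all 6 the difference was negative in 4 and positive in 2. Their sum was 3.00 to 4.01 CPM on the ketogenic diet, 4.34 to 8.44 on the high-fat diet and 5.49 to 15.3 on chow, and between the fat-rich diets Ms4a1, Igkc and Jchain fell on the ketogenic diet. All 6 had reads in every library. Of the 9 dendritic and plasmacytoid dendritic cell markers none passed in any comparison. Among all genes 30.8% passed for ketogenic against chow, 15.6% for high-fat against chow and 26.1% for ketogenic against high-fat. Siglech averaged 0.332, 0.341 and 0.365 CPM on ketogenic, high-fat and chow diets. The part of these cells in the Bst2 difference was not tested. In whole liver, fewer cells of a type and less RNA per cell cannot be told apart.

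Of the 12 effectors, Bst2, Rsad2 and Cmpk2 included, 7 rose on the ketogenic against the high-fat diet (58.3%, against 13.1% of all genes) and 5 fell on the high-fat diet against chow (41.7%, against 7.32%). Trim30a, a TRIM-family protein of mouse, measured 8.59, 8.73, 7.67, 6.20 and 6.95 CPM on the ketogenic diet, 5.75, 6.30, 6.85, 7.36 and 6.82 on chow, and 4.95, 5.47, 4.99, 5.16 and 6.54 on the high-fat diet. Only high-fat library 14 overlapped the ketogenic range, and the 1.41-fold difference passed (adjusted p = 0.00274, edgeR). Ifi44 rose 1.65-fold on the ketogenic diet against chow (log2 0.72 ± 0.19, adjusted p = 0.00649, edgeR), with every ketogenic library above chow, and its high-fat mean was close to chow (2.64 ± 0.778 and 2.70 ± 0.328 CPM, SD, n = 5). Parp14, a mono-ADP-ribosyltransferase, rose 1.22-fold on the ketogenic diet against chow (adjusted p = 0.0146, edgeR). Ifi27 and Ifi35, among the most abundant members by TPM, fell 1.30-fold and 1.22-fold on the high-fat diet against chow (adjusted p = 0.0433 and 0.0410, edgeR) and did not pass between the fat-rich diets (adjusted p = 0.143 and 0.552). Mx2, of the dynamin-like GTPase family, rose 1.45-fold on the ketogenic against the high-fat diet (adjusted p = 0.0349, edgeR). The transcript that took most Mx2 reads (74.9%) is annotated as a polymorphic pseudogene. Mx1 fell 1.66-fold on the high-fat diet against chow (adjusted p = 0.0221) and rose 1.71-fold on the ketogenic against the high-fat diet (adjusted p = 0.00903, both edgeR). With an offset for effective length the latter was log2 -0.07 ± 0.34 (adjusted p = 0.905), and the former did not pass. The transcript that took most Mx1 reads is annotated as subject to nonsense-mediated decay, and its mean share on the ketogenic diet was 52.1 ± 26.9% (SD, n = 5). The transcripts with most reads of Oasl2 (73.5% of its reads), Gbp6 (58.7%) and Oas1g (54.0%) carry the same annotation. That of Xaf1 (52.1%) is annotated as a retained intron. Rtp4 and Xaf1, an antagonist of the apoptosis inhibitor XIAP, passed in no comparison.

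Of the 6 interferon-inducible GTPases, which take part in defence against intracellular pathogens, 4 rose on the ketogenic diet against chow (66.7%, against 16.2% of all genes). These were Gbp3, Gbp2, Gbp7 and Irgm1. Gbp3 measured 10.2, 7.50, 7.56, 4.51 and 7.27 CPM on the ketogenic diet, 3.95, 3.67, 4.16, 4.83 and 4.16 on chow, and 4.43, 3.93, 3.97, 3.65 and 5.66 on the high-fat diet. In 4 ketogenic libraries Gbp3 stood above all others and library 6 lay within the range of chow. Gbp3 was 1.78-fold higher than on chow (log2 0.83 ± 0.17, adjusted p = 9.86e-04, edgeR) and 1.71-fold higher than on the high-fat diet (adjusted p = 0.00263). Gbp2, Gbp7 and Irgm1 were 1.57-fold, 1.31-fold and 1.21-fold higher on the ketogenic diet than on chow (adjusted p = 0.0345, 0.0314 and 0.0212, edgeR). The 3 genes Gbp7, Gbp3 and Gbp2 lie within 108 kb of chromosome 3. On the high-fat diet they differed from chow by log2 -0.20 ± 0.13, 0.06 ± 0.17 and 0.12 ± 0.23 and did not pass.

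Gbp6, on chromosome 5, measured 20.3, 15.8, 14.0, 13.3 and 16.7 CPM on the ketogenic diet, 17.9, 14.0, 16.0, 22.6 and 19.1 on chow, and 11.2, 9.64, 10.3, 8.30 and 12.6 on the high-fat diet. The 5 high-fat libraries lay below the 10 others. Gbp6 fell 1.72-fold on the high-fat diet against chow (log2 -0.78 ± 0.14, adjusted p = 0.00179, edgeR) and did not pass on the ketogenic diet against chow. Gbp6 shared 74.1% of its 31-base words with other genes, so its reads could include those of near copies. Igtp, with 19.3 ± 4.41, 19.8 ± 2.54 and 14.7 ± 2.26 CPM on ketogenic, chow and high-fat diets (SD, n = 5), passed in no comparison. Tap1, which carries peptides into the endoplasmic reticulum for MHC class I, had its highest mean on the high-fat diet (12.3 ± 1.19 CPM, against 11.7 ± 2.03 on chow and 10.7 ± 1.17 on the ketogenic diet, SD, n = 5) and passed in no comparison.

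Levels of the members spanned a wide range. By TPM, which corrects for transcript length, the mean over the 15 libraries ran from 0.215 (Oas3) to 86.6 (Bst2), with a median of 4.43. The deposited effective lengths, on which TPM and the length offset rest, exceed the transcript's own length for 20.4 to 39.2% of transcripts in a library, and the order by TPM depends on them. Ifi27 followed Bst2 at 68.6, and Irgm1, Stat2, Ifi35 and Irf7 stood at 28.9, 24.3, 15.0 and 14.8 TPM. In 6 groups members lie within 100 kb of each other, and these hold 17 of the 38. They are the IFIT, OAS, OASL, Gbp and Mx groups and the pair Rsad2 and Cmpk2.

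Libraries of a diet differed in how high the whole set stood. For each library the median over the members of the log2 deviation from the gene's mean over all libraries was taken. On the ketogenic diet it was 0.45, 0.44, -0.03, 0.03 and 0.14 in libraries 2, 3, 4, 6 and 8. Library 2 was the highest of its diet in 22 members and library 3 in 13, while library 4 was the lowest in 17 and library 6 in 14. On the high-fat diet the medians were -0.20, -0.35, -0.31, -0.46 and -0.09 in libraries 9, 10, 11, 12 and 14. Library 14 was the highest of its diet in 23 members, and library 12 was the lowest in 22 and the lowest of all 15 in 18. On chow the medians were 0.11, -0.02, -0.07, 0.33 and 0.00, and library 18 was the highest in 23 members. Chow library 18 thus stood above ketogenic libraries 4, 6 and 8 on this measure, and no high-fat library reached the median of ketogenic library 4. The set did not rank the ketogenic libraries in a single order. Rsad2, Ifit1 and Ifit3 were highest in library 3 and next highest in library 8, whereas Zbp1, Gbp3, Gbp6 and Irf7 were highest in library 2.

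**Figure D4:**
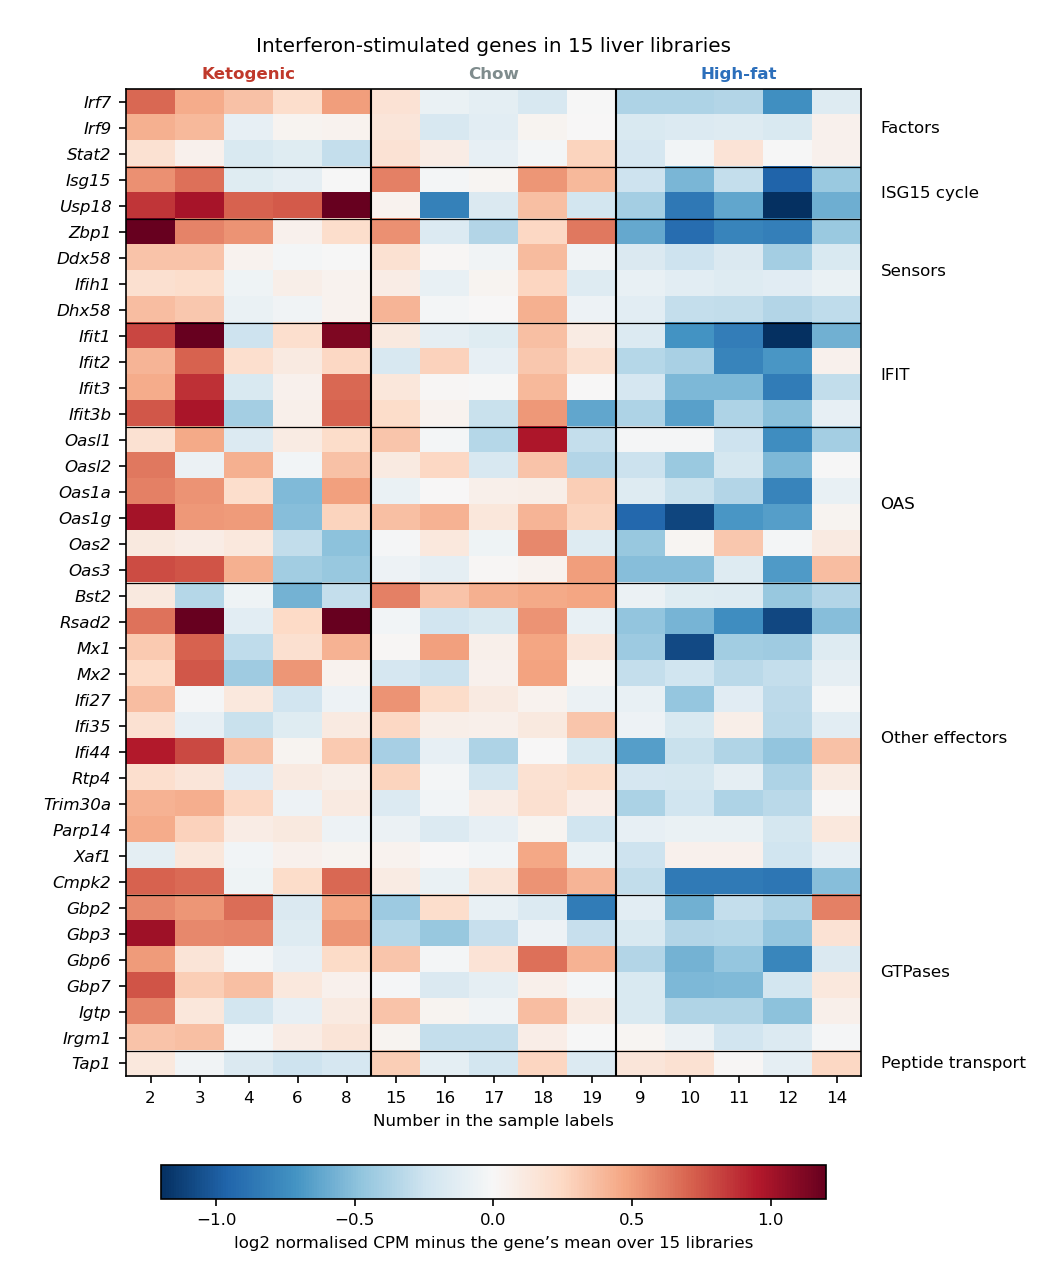
Log2 normalised CPM of the 38 members (rows, by role) in 15 libraries (columns, by diet and label number), each minus the gene's mean over all libraries, with red above and blue below and colours saturating at 1.2. Ketogenic libraries 2 and 3 and chow library 18 are mostly red, and high-fat library 12 is the lowest of all 15 in 18 genes.

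Calls near the threshold depended on single libraries. Of the 26 members higher on the ketogenic than on the high-fat diet, 20 kept the call whichever of the 10 libraries was left out. The other 6 lost it without at least 4 different libraries each, with the highest adjusted p being 0.0880 for Irf9, 0.0615 for Oas1a, 0.110 for Mx2, 0.124 for Parp14, 0.0903 for Ifih1 and 0.0718 for Irgm1. Those libraries were ketogenic 2, 3, 6 and 8 and high-fat 9, 10, 11 and 12. Of the 15 that fell on the high-fat diet against chow, 5 kept the call each time, namely Bst2, Gbp6, Cmpk2, Isg15 and Zbp1. The count was 8 without high-fat library 10 or 12, and 9 without chow library 15 or 18. Without a single library the adjusted p reached 0.101 for Usp18, 0.0735 for Irf7, 0.0960 for Ifit2, 0.0964 for Ifit3, 0.109 for Ifi27 and for Ifi35, 0.0559 for Oas1g, 0.0565 for Mx1, 0.0538 for Ddx58 and 0.0537 for Dhx58. Of the 10 omissions, 9 removed the call of Ifit3, 8 that of Usp18 and 6 those of Ifit2, Ifi27 and Ifi35 each. The call of Mx1 was lost in 3, those of Irf7, Oas1g and Ddx58 in 2 each and that of Dhx58 in 1. Every library of these diets but high-fat 9 was among those whose omission removed a call. Of the 9 that rose on the ketogenic diet against chow, Usp18, Gbp3, Irf7, Ifi44 and Parp14 kept the call each time. The count was 5 without ketogenic library 2, where Gbp2, Gbp7, Irgm1 and Rsad2 were lost and Ifi35 fell. The adjusted p of those 4 reached 0.0810, 0.0983, 0.0654 and 0.111, and ketogenic libraries 2, 3, 4 and 8 and chow libraries 15, 16, 17, 18 and 19 each removed at least 1 of them. Of the 10 omissions, 7 removed the call of Gbp2, 6 that of Gbp7, 4 that of Irgm1 and 7 that of Rsad2.

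Limma on log2(TPM + 0.5), which changes the unit and the test together, gave other counts against chow. By it, 18 members rose and 1 fell on the ketogenic diet against chow, 4 fell on the high-fat diet, and 33 rose between the fat-rich diets. Of all 13967 genes it called 4843 higher for ketogenic against chow and 4962 for ketogenic against high-fat. For high-fat against chow it called 474 genes, 124 of them higher. That scale moved the median of all genes by 0.25 for ketogenic against chow and by 0.26 for ketogenic against high-fat, and 93.2% and 96.0% of all its calls in these comparisons were higher, against 52.6% and 50.1% in the count test. The share of transcripts whose effective length exceeds their own was 20.4 to 23.7% in the ketogenic libraries, below all 10 others (24.5 to 39.2% on the high-fat diet and 28.7 to 37.2% on chow). Its part in the TPM and length offset results was not tested. Relative to the median of all genes, the members' median on it was 0.16, -0.30 and 0.43 for ketogenic against chow, high-fat against chow and ketogenic against high-fat. Scaling by total counts gave 68.5% and 70.6% higher calls among all genes in the ketogenic comparisons, with 10 members fallen on the high-fat diet against chow. In that last comparison total-count scaling called 1631 of all 13967 genes, 787 of them higher. With an offset for effective length 10 members fell on the high-fat diet against chow, where 1580 of all genes passed, 741 of them higher. Between the fat-rich diets 21 members rose with this offset, where 3002 of all genes passed, 1590 of them higher.

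Transcripts of the interferons themselves were almost absent. Of 20 interferon genes in the files, 16 had no read in any library, and no gene had more than 3 reads in a library, so none could be tested. Interferon gamma (Ifng) had 3, 3 and 5 reads over the ketogenic, high-fat and chow libraries. A count of 0 in a library allows up to 3 reads there, so transcription below that level was not detectable at this depth.

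Of 11 receptors and signal transducers tested, 3 rose and 1 fell on the ketogenic diet against chow (27.3% and 9.09%, against 16.2% and 14.6% of all genes). In the high-fat group 1 rose and 2 fell against chow (9.09% and 18.2%, against 8.3% and 7.32%), and between the fat-rich diets 1 rose and 1 fell (9.09% each, against 13.1% and 13.0%). Irf1, a factor induced by interferon gamma, had 15.7 ± 4.68, 19.0 ± 1.96 and 18.7 ± 4.51 CPM on ketogenic, chow and high-fat diets (SD, n = 5) and did not pass. The type I receptor chain Ifnar1 rose 1.18-fold on the ketogenic diet against chow (adjusted p = 0.0198), and Ifnar2 fell 1.15-fold on the high-fat diet (adjusted p = 0.0369, both edgeR). Ifngr2, a chain of the interferon gamma receptor, rose 1.43-fold on the ketogenic diet against chow (log2 0.52 ± 0.08, adjusted p = 1.26e-04, edgeR), with no overlap. Jak1 rose 1.11-fold and 1.13-fold on the ketogenic and high-fat diets against chow (adjusted p = 0.0259 and 0.0216, edgeR). Tyk2 fell 1.15-fold on the ketogenic diet against chow (adjusted p = 0.0276, edgeR). Ifngr1 fell on the high-fat diet (log2 -0.26, adjusted p = 0.0476, edgeR). Between the fat-rich diets Ifngr2 rose and Tyk2 fell. The calls against chow of Ifnar1, Ifnar2, Ifngr1, Jak1 and Tyk2 were each lost in at least 1 alternative fit, and that of Ifngr2 in none of those run.

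Of 17 sensors and adaptors upstream of interferon, 5 rose and 3 fell on the ketogenic diet against chow (29.4% and 17.6%, against 16.2% and 14.6% of all genes). In the high-fat group 3 rose against chow (17.6%, against 8.3%) and 0 fell (against 7.32%). Between the fat-rich diets 1 rose and 3 fell (5.88% and 17.6%, against 13.1% and 13.0%). Tlr4, Ticam1, Myd88, Traf3 and Traf6 rose and Irf3, Irf5 and Unc93b1 fell on the ketogenic diet against chow. Mb21d1 (cGAS), Traf3 and Traf6 rose on the high-fat diet against chow, and between the fat-rich diets Tlr4 rose and Irf3, Irf5 and Unc93b1 fell. Unc93b1, which carries nucleic acid-sensing Toll-like receptors to endosomes, fell 1.40-fold on the ketogenic diet against chow (adjusted p = 8.56e-05, edgeR). Of 9 negative regulators tested none fell in any comparison. Among all genes 14.6% fell for ketogenic against chow, 7.32% for high-fat against chow and 13.0% for ketogenic against high-fat. Ptpn11 and Ptpn1 (22.2%, against 16.2% of all genes) rose on the ketogenic diet against chow (log2 0.21 and 0.22, adjusted p = 0.00577 and 0.0235, edgeR). No regulator passed on the high-fat diet against chow (against 15.6% of all genes), and Ptpn1 rose between the fat-rich diets (11.1%, against 13.1%).

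Of 44 other interferon-stimulated genes tested, 13 rose on the ketogenic against the high-fat diet (29.5%, against 13.1% of all genes) and none fell (against 13.0%). Their median was 0.23. On the ketogenic diet against chow 5 rose (Dtx3l, Parp9, Trim25, Tor3a and Znfx1, 11.4%, against 16.2% of all genes) and none fell (against 14.6%). On the high-fat diet against chow 5 fell (Ifi27l2a, Ly6e, Ube2l6, Lgals3bp and Pnpt1, 11.4%, against 7.32%) and 2 rose (Dtx3l and Trim25, 4.55%, against 8.3%). Dtx3l and Parp9, partners in ADP-ribosylation and ubiquitination, rose 1.81-fold and 1.41-fold on the ketogenic diet against chow (adjusted p = 9.08e-07 and 4.95e-05, edgeR), each with no overlap. Dtx3l also rose 1.22-fold on the high-fat diet (adjusted p = 0.0309, edgeR), where no member rose. Ifi27l2a, at 1.79 ± 0.397, 1.80 ± 0.187 and 0.773 ± 0.336 CPM on ketogenic, chow and high-fat diets (SD, n = 5), fell 2.30-fold on the high-fat diet against chow (adjusted p = 0.00292, edgeR). Ly6e and Lgals3bp fell 1.52-fold and 1.28-fold there (adjusted p = 0.00317 and 0.0180, edgeR).

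Of 17 interferon gamma GTPases and chemokines tested, 3 rose and 2 fell on the ketogenic against the high-fat diet (17.6% and 11.8%, against 13.1% and 13.0% of all genes). None of the 17 passed on the high-fat diet against chow (against 15.6% of all genes). On the ketogenic diet against chow 3 rose (Iigp1, Irgm2 and Tgtp1, 17.6%, against 16.2% of all genes) and Gbp5 fell (5.88%, against 14.6%). Between the fat-rich diets Iigp1, Irgm2 and Cxcl10 rose and Gbp5 and Cxcl9 fell. Iigp1, an immunity-related GTPase, rose 1.22-fold on the ketogenic diet against chow (344 ± 13.1 against 283 ± 20.6 CPM, SD, n = 5, adjusted p = 0.00326, edgeR). Gbp5 went the other way, falling 1.39-fold (adjusted p = 0.00638, edgeR). The chemokine Cxcl10 rose 1.67-fold on the ketogenic against the high-fat diet (adjusted p = 0.0126, edgeR). Of 20 genes of MHC class I presentation and the immunoproteasome, 7 rose on the ketogenic against the high-fat diet (35.0%, against 13.1% of all genes) and none fell (against 13.0%). On the ketogenic diet against chow 6 of the 20 rose (against 16.2% of all genes) and 4 fell (Tapbpl, H2-Q4, Pdia3 and Calr, against 14.6%). For high-fat against chow the same 4 genes and Psme1 fell (25.0%, against 7.32%). H2-T23, H2-T22 and H2-D1 rose 1.42-fold, 1.33-fold and 1.31-fold on the ketogenic diet against chow (adjusted p = 2.53e-05, 3.74e-04 and 0.00129, edgeR). Psme1, an activator of the proteasome, fell 1.36-fold on the high-fat diet against chow (adjusted p = 9.82e-04, edgeR).

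**Figure D5:**
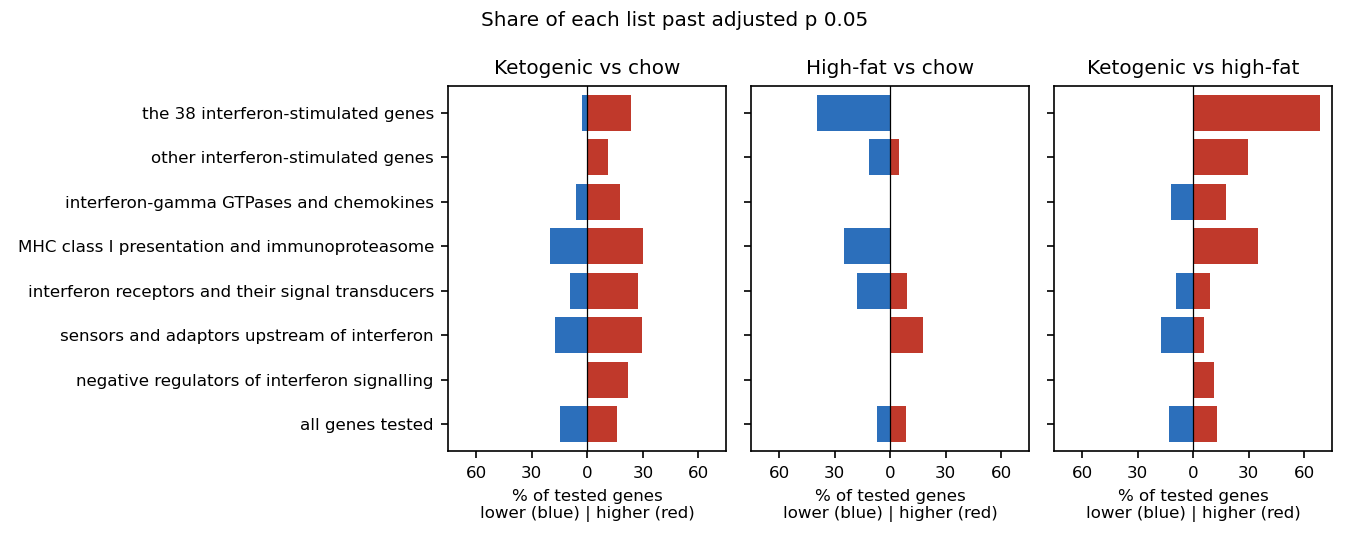
Share of tested genes past adjusted p 0.05, higher (red, right) or lower (blue, left), for the 38 members, 6 other lists and all 13967 genes in the 3 comparisons. For ketogenic against high-fat, 68.4% of the 38 members were higher, against 13.1% of all genes.

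Of 12 macrophage and Kupffer cell markers, 3 (Vsig4, C1qb and Cd5l) rose on the ketogenic against the high-fat diet (25.0%, against 13.1% of all genes) and none fell, with a median of 0.33. On the high-fat diet against chow none of the 12 passed (against 15.6% of all genes), with a median of -0.25. All 12 had a negative difference there, as did 6627 of all 13967 genes. On the ketogenic diet against chow only Lyz2 passed, and it fell (8.33%, against 14.6% of all genes). The summed level was 169.5 to 258 CPM on the ketogenic diet, 137 to 228 on the high-fat diet and 180.1 to 221 on chow, so that the diets overlapped. Of 7 monocyte and neutrophil markers 4 could be tested, of which Ly6c2 rose on the ketogenic against the high-fat diet (log2 0.99, adjusted p = 0.0232, edgeR). Their sum was 2.88 to 5.10, 2.49 to 2.84 and 2.71 to 3.50 CPM on ketogenic, high-fat and chow diets, and Chil3, S100a8 and Retnlg were too low to test. Among all genes, 16.2% rose and 14.6% fell for ketogenic against chow. The shares were 8.3% and 7.32% for high-fat against chow, and 13.1% and 13.0% for ketogenic against high-fat. Sox9 of the 4 cholangiocyte markers fell and Dcn of the 6 stellate cell markers rose on the ketogenic against the high-fat diet, and Dcn also rose against chow. Of the 8 sinusoidal endothelial markers, Oit3 rose on the ketogenic and Stab1 on the high-fat diet against chow, and Stab1 fell on the ketogenic against the high-fat diet. Of 7 T and NK cell markers tested, Cd3d fell on the ketogenic diet against both others. The part of these cells in the differences among the members was not tested.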

How the data were processed

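RNA was measured by sequencing in 15 libraries of mouse liver, 5 per diet. Per the submitters' processing notes, Trimmomatic 0.36, kallisto 0.44, edgeR 3.28 and build GRCm38.p6 were used, with no settings stated. The deposited tables hold 106332 transcripts per library with the authors' estimated counts, TPM and effective length, which sets the TPM and the length offset. Per the file headers these are kallisto columns, and estimated counts split reads among similar transcripts.

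Estimated counts were summed per gene with GENCODE M21 and rounded. In all 105734 transcripts matched 25731 genes, and the 598 unmatched ones (0.184 to 0.223% of reads) were left out. Genes were kept by filterByExpr of edgeR 4.0.16 (R 4.3.3, minimum count 10, minimum total 15), scaled by TMM, fitted in 1 model of 15 libraries and tested by the robust quasi-likelihood F test, with Benjamini-Hochberg adjustment over 13967 genes. The biological coefficient of variation was 0.131, with 12 residual degrees of freedom. Counting error comes on top of it, is larger for members with fewer reads, and was not computed per member.

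Alternatives were relative log expression or total-count scaling, no filter, at least 1 CPM in 5 libraries, an effective length offset, only the diets compared, each library left out, DESeq2 1.42.0, and limma 3.58.1 on log2(TPM + 0.5). Words of 31 bases were compared between transcripts. Tables and figures used Python 3.11.15, pandas 2.3.3, numpy 2.4.6 and matplotlib 3.10.9.

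The members and lists were chosen with earlier results of these data known. Library values are given for the 12 members with the smallest adjusted p, and for Isg15, which was added after its values were seen. From other lists up to 4 genes per comparison by adjusted p were named, with Irf1, Ifnar1 and Ifnar2. Of the genes listed, 2 that are no members are not reported here and enter no list. Genes behind a count of 5 or fewer are named outside that rule, after their values were seen.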

Additional observations from a re-analysis of the deposited data

Results flagged for a closer look

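Libraries far from the others of their diet were sought in 201 groups of 5 libraries (67 genes, 3 diets), as a gap to the nearest library above 0.71 of the range of the group. Chance alone flags about 1 group in 20, and 14 groups were found, 5 of them among the 114 groups of the members. High-fat library 14 stood above its diet in Irf9 (24.8 CPM, next 21.5), Gbp2 (4.90, next 2.96) and Gbp5 (4.75, next 3.95). Chow library 18 stood above in Rsad2 (13.2 CPM, next 8.88) and Xaf1 (7.54, next 5.63), and chow library 19 in Oas3 (1.09, next 0.795) and Cd5l (39.8, next 30.2). Ketogenic library 2 was high in Irf1 (23.9 CPM, next 14.2) and Irgm2 (50.95, next 38.9), and ketogenic library 4 in Lyz2 (22.1, next 16.9). High-fat library 9 was high in Ifngr2 (14.2 CPM, next 11.6) and low in Jak1 (95.4, next 100.2). High-fat library 12 was low in Ly6e (47.9 CPM, next 64.6) and H2-D1 (256, next 302).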

How the results depend on the processing

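No paired analysis was possible because the label numbers do not recur across diets. By limma on TPM the members risen on the ketogenic diet against chow numbered 18 (9 in the count test) and those fallen on the high-fat diet 4 (15). Over all genes, 4843 rose on the ketogenic diet against chow (2258 in the count test). For high-fat against chow 474 genes passed in either direction (2182 in the count test). The cause was not tested. Leaving out 1 library gave 5 to 11 risen and 1 to 2 fallen for ketogenic against chow, 8 to 16 fallen for high-fat against chow, and 20 to 29 risen for ketogenic against high-fat. The direction turned in 6 of the gene-level results. By limma on TPM these were Ifi35 (0.10), Irf1 (0.0475) and Tyk2 (0.12) for ketogenic against chow and Irf1 (0.0654) and Tyk2 (0.0368) for ketogenic against high-fat, and with the length offset Mx1 (-0.0702) for ketogenic against high-fat. Of the other gene-level results under alternatives, 2089 kept direction and side of the threshold, 236 no longer passed and 77 newly passed. Depth limits Oas1g most, with 11.3 reads in its lowest library.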
